A study of Mus musculus with 18 samples.

Results

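The transcripts of 10 imprinted genes, Zdbf2, Mest, Igf2, H19, Peg3, Dlk1, Plagl1, Cdkn1c, Ndn and Grb10, were followed in 18 poly(A) RNA libraries of immortalised mouse embryonic fibroblasts. They were listed by symbol because Zdbf2 and Mest differed strongly between the 2 lines of the study, and they are 10 of 24316 genes with a value in every library. All 10 passed the filter on low counts, as did 13258 genes in all. All cells lacked the small Maf proteins (MafF-/-::MafG-/-::MafK-/-), so the controls carried these deletions too. Mock cells (3 libraries per treatment) were set beside cells with T-N1G (3 libraries per treatment), a fusion in which the transcription factor Nrf1 is tethered to MafG and which the genotype label spells T-NG1. Each line received vehicle or MG132, which blocks the proteasome, at 0.3 µM or 1.0 µM for 12 h. The labels name no promoter for the transgene and do not say whether a line is 1 clone or a pool, nor whether a group's 3 libraries stem from different dishes. A difference between the lines is therefore a difference between 1 culture history and another, and a p-value here reflects the scatter among libraries alone, which could be technical.

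At an imprinted gene, only the copy inherited from the father or only that from the mother is read, because DNA methylation laid down at CpG sites in the egg or the sperm marks the copies differently. Many imprinted genes act on fetal growth: paternally expressed genes such as Igf2 tend to promote it, and maternally expressed genes such as Cdkn1c, Grb10 and H19 tend to restrain it. Several are abundant in embryonic mesenchyme and are turned down in adult tissues. Zdbf2, Mest, Igf2, Peg3, Dlk1, Plagl1 and Ndn are expressed from the paternal copy, and H19, Cdkn1c and, in most tissues, Grb10 from the maternal copy. The libraries give no information on which copy was read or on methylation.

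The promoters of Zdbf2 and Mest are shown because these are the genes whose line difference led to the list, and capitals mark the CpG sites, where imprinting methylation is placed. RefSeq's promoter table (build GRCm38.p6) matched 8 of the 10 genes, all but H19 and Cdkn1c, with 15 windows of 300 bases (250 before and 50 after a start site). The 250 bases before each start are printed 5′ to 3′, on the plus strand, for both starts of Zdbf2 and for a pair of starts of Mest.
Zdbf2, chr1:63200108-63200357: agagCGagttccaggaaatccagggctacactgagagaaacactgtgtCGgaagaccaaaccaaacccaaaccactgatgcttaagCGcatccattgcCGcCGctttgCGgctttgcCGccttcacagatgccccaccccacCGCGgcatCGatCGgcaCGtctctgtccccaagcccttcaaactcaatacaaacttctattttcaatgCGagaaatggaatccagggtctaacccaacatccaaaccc
Zdbf2, chr1:63273019-63273268: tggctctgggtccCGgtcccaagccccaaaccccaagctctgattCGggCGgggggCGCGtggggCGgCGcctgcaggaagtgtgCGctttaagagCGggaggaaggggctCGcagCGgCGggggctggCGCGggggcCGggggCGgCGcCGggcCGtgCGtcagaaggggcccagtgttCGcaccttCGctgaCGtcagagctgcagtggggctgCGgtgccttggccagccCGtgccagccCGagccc
Mest, chr6:30733256-30733505: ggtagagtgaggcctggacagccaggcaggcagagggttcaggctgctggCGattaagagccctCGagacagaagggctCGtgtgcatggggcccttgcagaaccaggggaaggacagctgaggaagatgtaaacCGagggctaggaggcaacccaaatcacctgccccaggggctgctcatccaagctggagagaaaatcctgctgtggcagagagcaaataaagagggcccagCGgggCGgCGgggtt
Mest, chr6:30737800-30738049: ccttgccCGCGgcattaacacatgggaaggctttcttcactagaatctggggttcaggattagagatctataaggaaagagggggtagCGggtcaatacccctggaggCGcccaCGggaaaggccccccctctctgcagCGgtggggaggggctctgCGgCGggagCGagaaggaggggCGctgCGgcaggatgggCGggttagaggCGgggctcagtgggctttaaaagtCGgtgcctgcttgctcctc
The upstream Zdbf2 stretch held 13 CpG sites and the downstream one 26, and the Mest stretches held 7 and 14. The letters TGCCGC, the motif of the imprint-guarding zinc finger protein ZFP57, were searched on both strands (GCGGCA on the other strand). They stood 3 times in the upstream Zdbf2 stretch and 2 times in the downstream Mest stretch, and were absent from the other printed stretches. Of the 15 full windows, 6 held the motif at least once, against 11.6% of 32817 RefSeq windows of the same length. Of these 6, 2 are Mest windows that lie 3 bases apart and share their motifs, and only the first is printed. The motif itself holds a CpG, and the 6 windows held 14 to 45 CpG sites, beside a median of 7 over all RefSeq windows. The part of CpG content in the share with a motif was not tested. A match is a description of the letters and not a measured binding site.

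Depth was 18164382 to 21196909 fragments per library. Mafg stood at 6 to 25 fragments in every mock library and at 3079 to 69014 in the T-N1G libraries. Nfe2l1, which encodes Nrf1, was also higher in the latter (1102 ± 74.4 CPM under vehicle against 280 ± 7.03, SD, n = 3). At 0.3 and 1.0 µM MG132, Nfe2l1 stood at 4637 and 17010 CPM in T-N1G cells and at 376 and 315 in mock cells. Mafg in T-N1G cells went from 159 CPM under vehicle to 814 and 3290. The part of these rises in the MG132 responses of T-N1G cells was not tested. Maff and Mafk gave 55 to 811 and 26 to 152 fragments per library. Which part of these genes was deleted is not given in the sources used here, so such fragments check nothing. All 8 fibroblast markers were detected in every group, with summed levels of 8370 to 13160 CPM, whereas the summed markers of leukocytes, endothelium, epithelium, muscle or fat, and germ or pluripotent cells reached at most 87.0 CPM. The 5 endothelial markers summed to 5.98 to 6.72 CPM in mock cells under vehicle and to 63.4 to 87.0 at 1.0 µM, the 6 epithelial markers to 16.8 to 20.4 and 46.9 to 73.8, and their part in the results was not tested. Of the 8 fibroblast markers, 5 fell and 2 rose in mock cells at 1.0 µM, and 7 fell and 1 rose in T-N1G cells at that dose. Of all genes tested, 69.7% were called in mock (37.4% lower) and 76.4% in T-N1G cells (38.9% lower) at 1.0 µM. Replicates scattered more at 1.0 µM, where the SD of log2 CPM had a median of 0.142 (mock) and 0.175 (T-N1G) across 5901 genes of high count, against 0.0471 and 0.061 under vehicle. In bulk RNA, fewer cells of a type and less RNA per cell cannot be told apart.

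Zdbf2, a zinc finger gene known for its part in early feeding and growth, was read in mock cells and almost silent in T-N1G cells. In mock cells its level, as counts per library total scaled by TMM (CPM), was 7.37, 7.82 and 8.305 under vehicle, 9.83, 9.59 and 11.4 at 0.3 µM and 43.0, 16.2 and 32.5 at 1.0 µM. In T-N1G cells no fragment was counted in the 3 vehicle libraries, and 1, 3 and 1 fragments were counted at each MG132 dose. The lines did not overlap at any treatment. Against 511 fragments in mock cells under vehicle, 0 fragments put the T-N1G level at least 169.8-fold lower (floor of 3 fragments over the group). It was 125-fold lower at 0.3 µM (628 against 5 fragments, 95% counting interval 53.4 to 387) and 319-fold lower at 1.0 µM (1747 against 5, 136 to 983). These line differences chose the gene and carry no test.

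Within mock cells, Zdbf2 rose 3.898-fold at 1.0 µM (log2 1.96 ± 0.25, SE, edgeR adjusted p = 5.41e-06), and each of the 3 libraries lay above every vehicle library. At 0.3 µM all 3 mock libraries also lay above vehicle, with a log2 difference of 0.39 ± 0.26 that did not pass the test (adjusted p = 0.215). It passed without mock library 2 at 1.0 µM (adjusted p = 0.0254) and in a fit of the mock vehicle and 0.3 µM libraries alone (adjusted p = 0.000927).

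Genes next to Zdbf2 were read in both lines. Of 6 genes that start within 200 kb in the deposited loci, 4 were tested (Ino80d, Ino80dos, Ndufs1 and Eef1b2). None was called between the lines under vehicle, beside 16.1% of all genes tested. In a fit of the vehicle libraries alone, Eef1b2, an elongation factor gene, was called (log2 -0.20, adjusted p = 0.00572). Ino80d, a subunit gene of a chromatin remodeller, stood at 68.05 CPM in T-N1G and 61.04 in mock cells, and Ndufs1, a subunit gene of respiratory complex I, at 105 and 106. Their log2 differences were 0.16 ± 0.13 (adjusted p = 0.478) and -0.01 ± 0.08 (adjusted p = 0.969). At 0.3 and 1.0 µM, 3 of the 4 were called between the lines, beside 48.5% and 61.9% of all genes tested. Ino80d (log2 0.41 and 0.72) and Ndufs1 (0.22 and 0.46) were higher and Eef1b2 (-0.37 and -0.31) lower in T-N1G cells. Nothing is read from counts over 4 genes. The imprinted neighbour Gpr1 shares the deposited locus of Zdbf2 (chr1:63229145-63361149, mm9) and had 6 fragments over all mock and 3 over all T-N1G libraries, too few to test.

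Mest, which encodes a hydrolase-like protein of the endoplasmic reticulum known from mesoderm and growing fat, showed the opposite line difference. Its level in mock cells was 7.78, 8.70 and 8.305 CPM under vehicle, 11.5, 12.8 and 11.7 at 0.3 µM and 20.1, 16.1 and 10.4 at 1.0 µM. In T-N1G cells it was 60.7, 60.6 and 77.9 CPM under vehicle, 112, 115 and 126 at 0.3 µM and 163, 151 and 136 at 1.0 µM. Every T-N1G library lay above every mock library, and the level was 8.03-fold, 9.80-fold and 9.67-fold higher at the 3 treatments. These differences chose the gene and carry no test.

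Mest also rose with MG132 in both lines. In mock cells it was 1.45-fold higher at 0.3 µM (adjusted p = 0.0164) and 1.87-fold higher at 1.0 µM (log2 0.90 ± 0.17, adjusted p = 0.000184). The rise in T-N1G cells was 1.77-fold at 0.3 µM (adjusted p = 0.000113) and 2.26-fold at 1.0 µM (log2 1.17 ± 0.15, adjusted p = 1.21e-06). Treated and vehicle libraries did not overlap in any of the 4 comparisons. The call in mock cells at 0.3 µM was lost without mock library 2 at that dose (log2 0.49, adjusted p = 0.0577).

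The deposited locus of Mest (chr6:30683506-30846794, mm9) also holds Copg2, a gene of the vesicle coat, which the reference annotation (GENCODE, GRCm38) places on the opposite strand with an overlap of 912 bases. Strand use in the counting is not given in the sources used here, so reads of these genes may not have been kept apart. Copg2 was 1.61-fold higher in the T-N1G line under vehicle (64.0 against 39.7 CPM, log2 0.69 ± 0.09, adjusted p = 3.99e-05). With MG132, Copg2 fell in mock cells at both doses (log2 -0.47 and -0.75, adjusted p = 0.00032 and 1.17e-06). In T-N1G cells it stood at 64.6 CPM at 0.3 µM and 66.4 at 1.0 µM. The part of mixed reads in these values was not tested. The other tested neighbour, Cep41, a centrosome gene, did not pass the test under vehicle (log2 0.25 ± 0.10, adjusted p = 0.104). It did in a fit of the vehicle libraries alone (adjusted p = 0.0137).

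**Figure D1:**
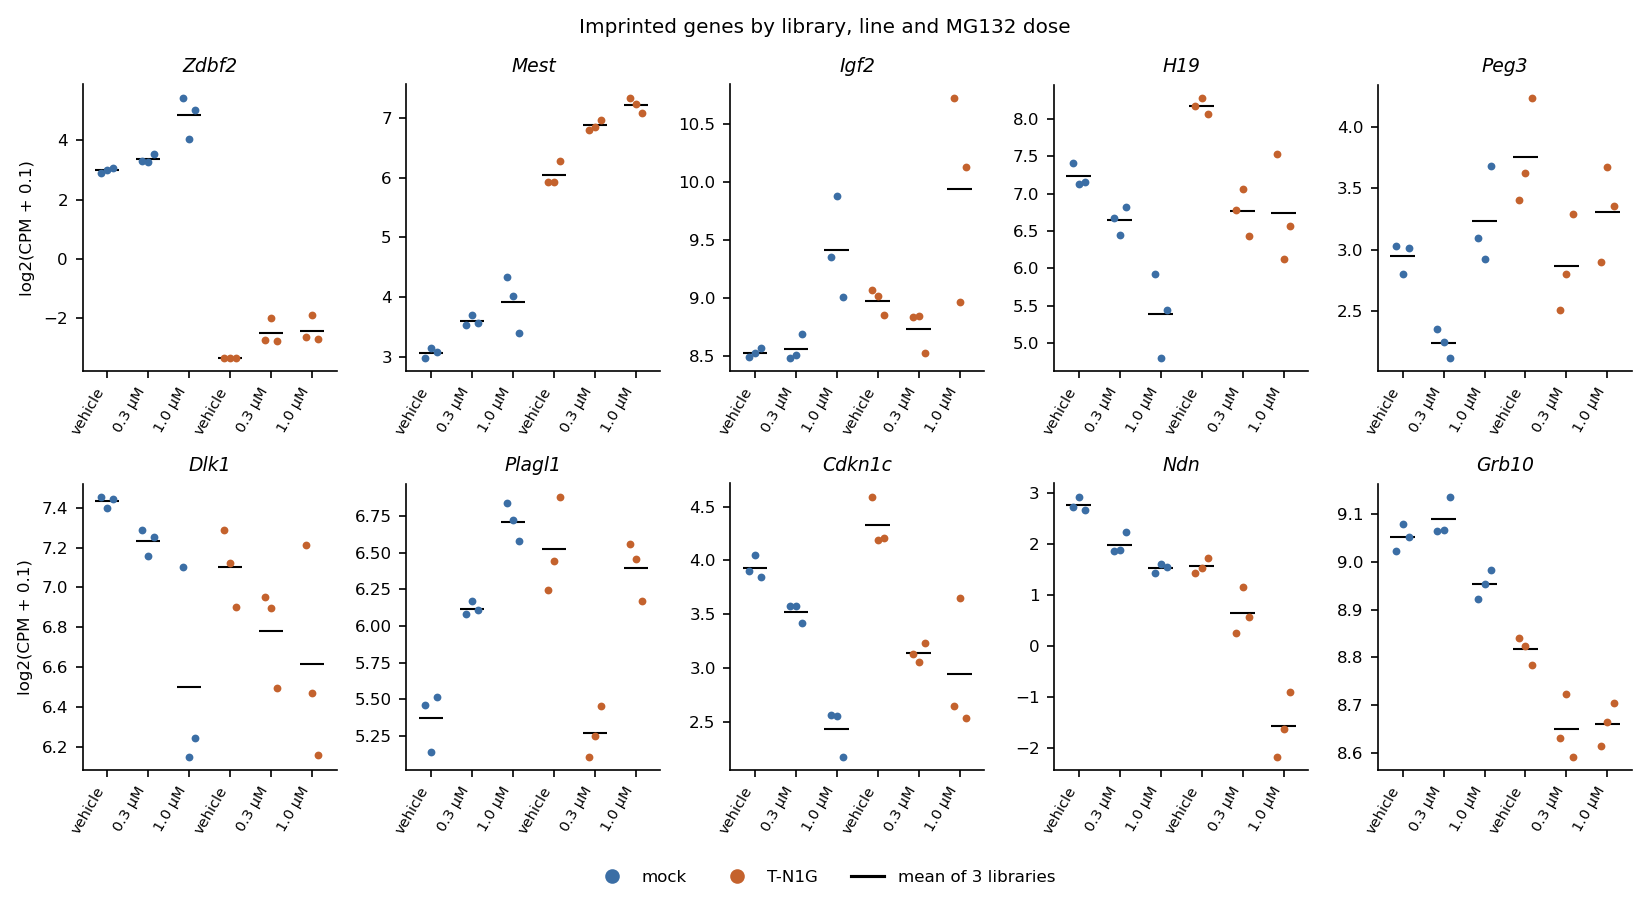
Level of each gene in every library, as log2(CPM + 0.1) on a vertical axis whose scale differs between genes, with vehicle, 0.3 µM and 1.0 µM MG132 for mock cells (blue) and T-N1G cells (orange), and black lines for the means of 3 libraries. Zdbf2 was at 0 in the 3 T-N1G vehicle libraries and at 7.37 to 8.305 CPM in the mock ones, and Mest was higher in all 9 T-N1G than in all 9 mock libraries.

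The other 8 genes differed less between the lines under vehicle. Plagl1, which encodes a zinc finger transcription factor that controls other imprinted genes, was 2.25-fold higher in T-N1G cells, H19, a noncoding RNA, 1.92-fold higher and Peg3, a zinc finger gene, 1.81-fold higher. Igf2, the fetal growth ligand, was 1.37-fold and Cdkn1c, the cell cycle inhibitor p57, 1.33-fold higher. Ndn, a growth-suppressing protein of the MAGE family, was 2.36-fold lower, Dlk1, a membrane protein that holds back fat cell formation, 1.25-fold lower and Grb10, an adaptor that dampens insulin and IGF receptor signalling, 1.18-fold lower.

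Under vehicle the 3 libraries of one line did not overlap with those of the other for any of the 10 genes, beside 49.2% of all genes tested. This held for 8 of 10 at 0.3 µM (66.4% of all genes) and 6 of 10 at 1.0 µM (54.7%), and since the genes were chosen on this contrast, nothing is read from these counts. The adjusted-p rule called 16.1% of all genes between the lines under vehicle. Grb10 lies on chromosome 11, where the median log2 difference of 1108 tested genes under vehicle was -0.22, next to its own -0.23. At 0.3 µM Grb10 stood at -0.44 beside a median of -0.25, and at 1.0 µM at -0.29 beside -0.22. Ndn and Mest lay outside the 5th to 95th percentile of their chromosomes at each treatment (chromosome 7, -0.44 to 0.99, and chromosome 6, -0.71 to 0.90 under vehicle).

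**Figure D2:**
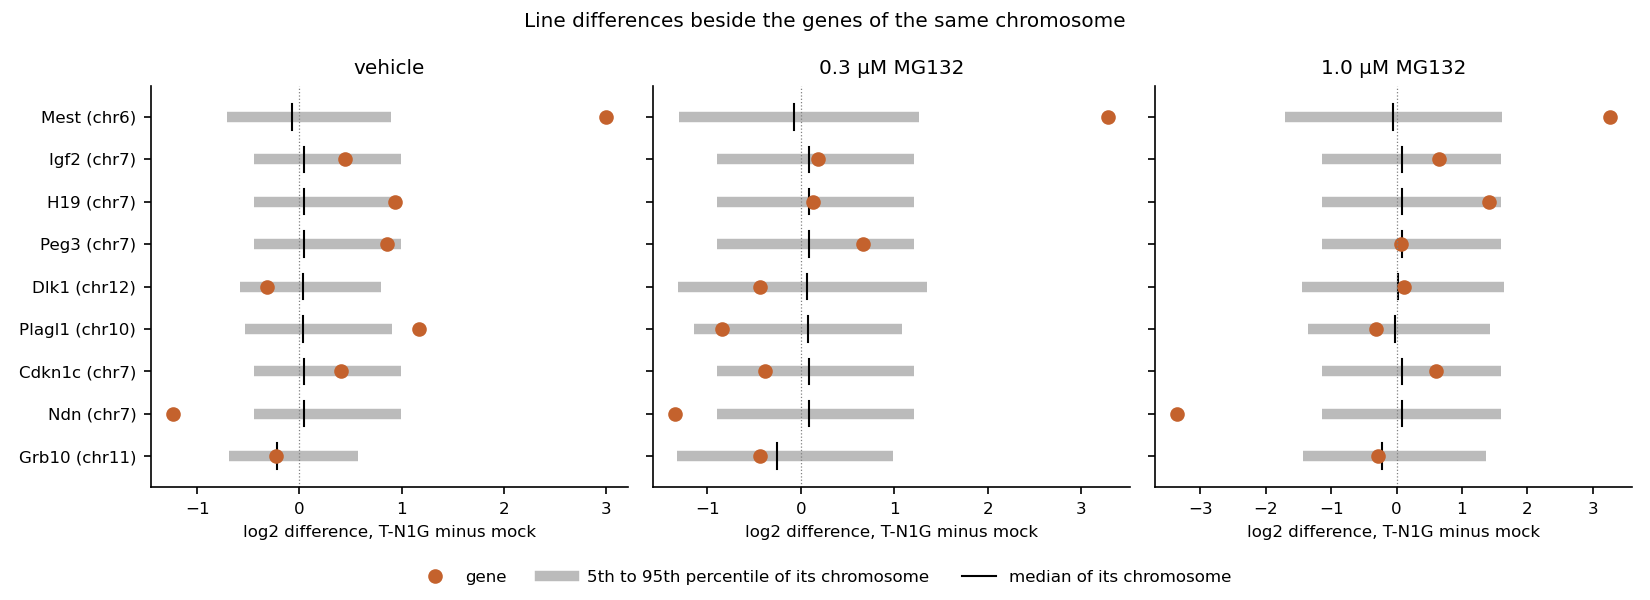
Difference between T-N1G and mock cells (orange dots, log2) for 9 of the genes at each treatment, beside the 5th to 95th percentile (grey bars) and the median (black ticks) of all tested genes on the same chromosome. Zdbf2, with 0 fragments in T-N1G cells under vehicle, is left out. The dots of Mest and Ndn lie outside the grey bars in the 3 panels, and that of Grb10 under vehicle lies at its chromosome's median.

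Levels of different genes were compared only per length, as the deposited FPKM. In mock cells under vehicle the order of mean FPKM was Grb10 (103), Igf2 (97.1), H19 (68.7), Dlk1 (39.7), Cdkn1c (8.44), Plagl1 (7.78), Ndn (4.45), Mest (3.31), Peg3 (1.13) and Zdbf2 (0.599), and only the ranges of Cdkn1c and Plagl1 overlapped among neighbours. In T-N1G cells under vehicle Igf2 (134) and H19 (132), whose ranges overlapped, came before Grb10 (87.9), and Mest (26.7) stood next to Dlk1 (31.9), whose range it overlapped. At 1.0 µM Igf2 led in both lines, at 198 FPKM in mock and 307 in T-N1G cells. Zdbf2 and Ndn, at 0.0075 and 0.176 FPKM, were the lowest in T-N1G cells at that dose.

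With MG132, calls among the 10 genes went in both directions. In mock cells at 0.3 µM, 2 rose (Mest and Plagl1) and 2 fell (Ndn and Peg3), 4 of 10 against 53.1% of all genes tested (25% higher and 28.1% lower). At 1.0 µM, 4 rose (Zdbf2, Mest, Igf2 and Plagl1) and 4 fell (H19, Cdkn1c, Ndn and Dlk1), 8 of 10 against 69.7% (32.4% higher, 37.4% lower). In T-N1G cells at 0.3 µM, Mest rose and 6 fell (H19, Plagl1, Cdkn1c, Ndn, Peg3 and Grb10), 7 of the 9 tested against 59.4% (29.1% higher, 30.3% lower). At 1.0 µM, 2 rose (Mest and Igf2) and 4 fell (Ndn, Cdkn1c, H19 and Grb10), 6 of the 9 tested against 76.4% (37.5% higher, 38.9% lower). As a median, the 10 genes changed by -0.08 and 0.12 (log2) in mock and -0.61 and -0.29 in T-N1G cells at the lower and the higher dose, beside -0.02, -0.04, -0.01 and -0.01 over all genes tested. Zdbf2, at 0 to 3 fragments, was not tested in T-N1G cells and enters their medians with a fitted value. The count of 4 in mock cells at 0.3 µM was 8 when the mock vehicle and 0.3 µM libraries alone were fitted, a fit that called 73.8% of its genes. It was 2 without mock library 2 at 0.3 µM, where 45.8% of all genes were called.

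**Figure D3:**
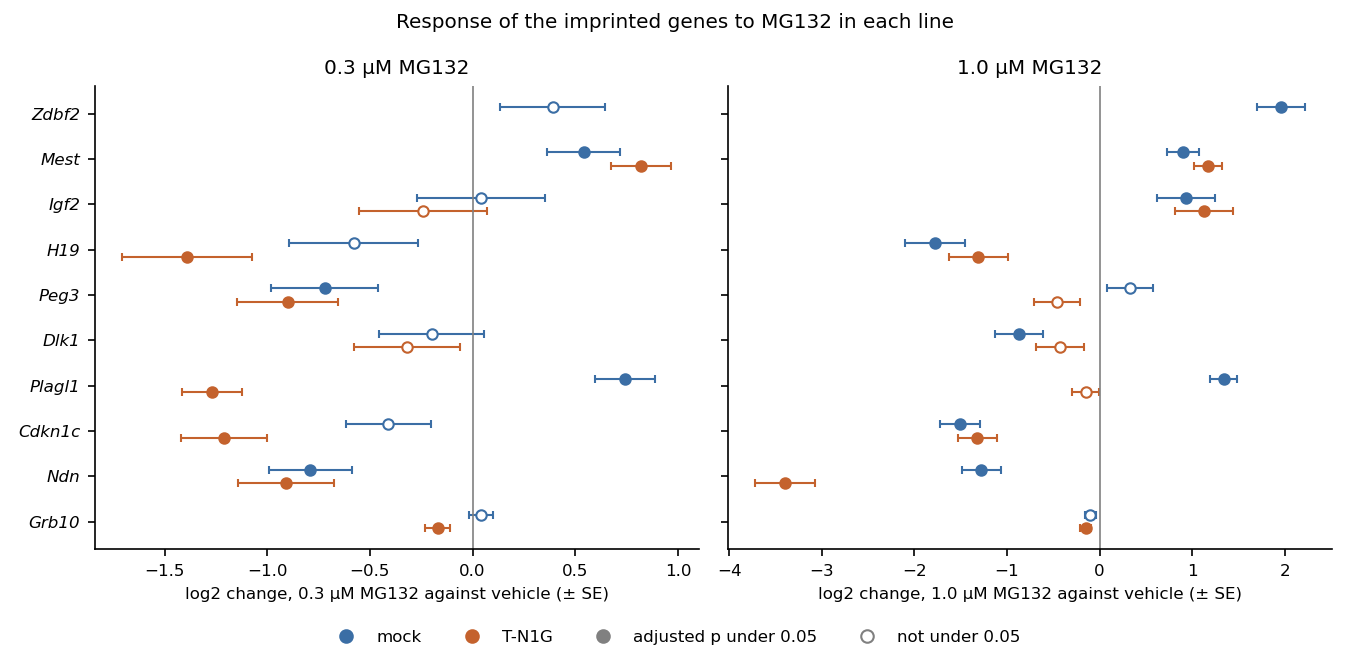
Change with MG132 against vehicle (log2, bars ± SE) in mock (blue) and T-N1G cells (orange), with filled dots for an adjusted p under 0.05. Mest lies above 0 in all 4 comparisons, Plagl1 lies on opposite sides of 0 in the lines at 0.3 µM (0.74 and -1.27), and Ndn at 1.0 µM reaches -3.40 in T-N1G cells. Zdbf2 is shown for mock cells only.

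In the deposited loci (mm9), Igf2 lies at chr7:149836673-149856261, H19 at chr7:149761435-149764051, Cdkn1c at chr7:150644244-150646955, Ndn at chr7:69493163-69494813 and Peg3 at chr7:6658671-6683130. Dlk1 lies at chr12:110691033-110701546, Plagl1 at chr10:12810594-12851501 and Grb10 at chr11:11830502-11937423. The Igf2 locus overlaps on the opposite strand with Igf2os by 7124 bases in the reference annotation, so reads of these genes may not have been kept apart.

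Igf2 and H19 share enhancers in one domain of chromosome 7, with Igf2 read from the paternal and H19 from the maternal copy. Igf2 stood at 359, 367 and 378 CPM in mock cells under vehicle, at 357, 364 and 412 at 0.3 µM and at 651, 940 and 514 at 1.0 µM. The T-N1G libraries stood at 534, 516 and 461 CPM, at 455, 458 and 367 and at 1694, 498 and 1115. Igf2 thus rose only at the higher dose, 1.91-fold in mock (log2 0.93 ± 0.31, adjusted p = 0.0167) and 2.19-fold in T-N1G cells (log2 1.13 ± 0.32, adjusted p = 0.00475). In T-N1G cells library 2 at 1.0 µM lay within the range of vehicle. The call in mock cells was lost without mock library 2 at 1.0 µM (log2 0.73, adjusted p = 0.0591). At 0.3 µM the T-N1G libraries lay below vehicle, with a log2 difference of -0.24 ± 0.31 that did not pass the test (adjusted p = 0.531). A fit of the T-N1G vehicle and 0.3 µM libraries alone called Igf2 lower (adjusted p = 0.0416).

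H19 moved the other way. It stood at 170, 140 and 143 CPM in mock cells under vehicle, at 102, 87.1 and 113 at 0.3 µM and at 60.9, 27.8 and 43.4 at 1.0 µM. With T-N1G it stood at 289, 313 and 267 CPM, at 110, 134 and 86.5 and at 186, 69.9 and 94.8. It fell 3.43-fold in mock cells at 1.0 µM (log2 -1.78 ± 0.33, adjusted p = 0.000241). It fell at both doses in T-N1G cells, 2.63-fold and 2.48-fold (log2 -1.39 ± 0.32 and -1.31 ± 0.32, adjusted p = 0.0017 and 0.00179). At 0.3 µM in mock cells the log2 difference of -0.58 ± 0.31 did not pass the test (adjusted p = 0.134), although the libraries did not overlap. A fit of those mock libraries alone called it (adjusted p = 0.0136).

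The log2 ratio of Igf2 to H19 within a library, in CPM and so comparable only between groups, was 1.29 ± 0.18 (SD, n = 3) in mock cells under vehicle, 1.91 ± 0.13 at 0.3 µM and 4.02 ± 0.92 at 1.0 µM. The T-N1G ratio was 0.80 ± 0.08, 1.97 ± 0.17 and 3.19 ± 0.36. In each line the ratios at the 3 treatments did not overlap.

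Igf2r, the maternally expressed receptor that clears the Igf2 ligand, was added for its role after its values were seen and rose with MG132 in both lines. Its log2 change was 0.80 and 1.18 in mock and 0.50 and 0.95 in T-N1G cells at the lower and the higher dose (adjusted p between 2.33e-08 and 0.000476). Of 15 tested genes of the IGF axis list, 3 were called between the lines under vehicle (20% against 16.1% of all genes). Igfbp5, a secreted IGF binding protein, was 12.5-fold higher in T-N1G cells (log2 3.64 ± 0.53, adjusted p = 0.000362), at 696, 500 and 596 CPM against 38.3, 26.4 and 78.5. In T-N1G cells it fell with MG132, to 41.5, 40.3 and 95.6 CPM at 1.0 µM. In mock cells its mean was 47.7 ± 27.3 CPM (SD, n = 3) under vehicle and 19.6 ± 13.5 at 1.0 µM, with overlapping ranges (4.43 to 13.2 and 1.62 to 6.15 FPKM). Under vehicle Igfbp3, a second binding protein, was 3.23-fold higher in T-N1G cells (adjusted p = 0.00498). Igf2bp3, which binds Igf2 mRNA, was lower (log2 -0.46 ± 0.09, adjusted p = 0.00135).

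Grb10 varied little. It stood at 520, 541 and 530 CPM in mock cells under vehicle, 535, 536 and 563 at 0.3 µM and 485, 496 and 506 at 1.0 µM. In T-N1G cells it stood at 458, 453 and 441 CPM, 397, 423 and 386, and 392, 406 and 417. In T-N1G cells it fell 1.12-fold at 0.3 µM and 1.11-fold at 1.0 µM (adjusted p = 0.0231 and 0.0259). Each of these 2 calls was lost in 9 of 25 alternatives, 8 and 7 of them the leaving out of a single library of the mock or T-N1G vehicle groups or of the dose itself, with adjusted p up to 0.154 and 0.194.

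Plagl1 responded in opposite directions in the lines. It stood at 43.9, 35.1 and 45.6 CPM in mock cells under vehicle, at 67.6, 71.8 and 68.8 at 0.3 µM and at 115, 106 and 95.4 at 1.0 µM. The T-N1G libraries stood at 75.8, 86.9 and 118 CPM under vehicle, at 34.3, 37.9 and 43.8 at 0.3 µM and at 94.3, 87.7 and 71.9 at 1.0 µM. All treated mock libraries lay above, and all T-N1G libraries at 0.3 µM below, their vehicle libraries. In mock cells Plagl1 rose 1.67-fold and 2.53-fold (log2 0.74 ± 0.15 and 1.34 ± 0.15, adjusted p = 0.000373 and 3.21e-07). In T-N1G cells it fell 2.42-fold at 0.3 µM (log2 -1.27 ± 0.15, adjusted p = 8.82e-07) and stood at -0.15 ± 0.14 at 1.0 µM (adjusted p = 0.359). The difference between the responses was itself past the threshold at both doses, at -2.01 ± 0.21 (adjusted p = 1.98e-06) and -1.49 ± 0.20 (adjusted p = 1.47e-05) on the log2 scale.

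This interaction was tested for the 8 genes other than Zdbf2 and Mest. It was called for 1 of 8 at 0.3 µM, beside 25.1% of all genes, and for 2 of 8 at 1.0 µM, Plagl1 and Ndn, beside 45% of all genes. Cdkn1c narrowly missed at 0.3 µM (log2 -0.80 ± 0.29, adjusted p = 0.054) and was called with the replicate number as a block (adjusted p = 0.0377), which moved the count from 1 to 2. It was also called with DESeq2 (adjusted p = 0.0362), in a fit of the 4 groups alone (adjusted p = 0.000243) and without each of the T-N1G libraries at 1.0 µM in turn (adjusted p = 0.0426, 0.00249 and 0.0292).

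Cdkn1c and Ndn, which both restrain cell division, fell with MG132. Cdkn1c stood at 14.9, 16.4 and 14.2 CPM in mock cells under vehicle, at 11.8, 11.8 and 10.6 at 0.3 µM and at 5.81, 5.76 and 4.41 at 1.0 µM. With T-N1G it stood at 24.1, 18.1 and 18.4 CPM, at 8.67, 8.20 and 9.31 and at 6.14, 12.5 and 5.69. No treated library overlapped with vehicle in either line. It fell 2.86-fold in mock cells at 1.0 µM (log2 -1.51 ± 0.22, adjusted p = 7.86e-06) and 2.31-fold and 2.49-fold in T-N1G cells (adjusted p = 7.29e-05 and 1.92e-05). At 0.3 µM in mock cells the log2 difference was -0.41 ± 0.21 (adjusted p = 0.101). It was called without T-N1G library 2 at 1.0 µM (adjusted p = 0.00866) and in a fit of the compared libraries alone (adjusted p = 0.000308).

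Ndn fell in all 4 comparisons, most in T-N1G cells at 1.0 µM. Mock cells gave 141, 163 and 138 fragments under vehicle, 71, 73 and 95 at 0.3 µM and 46, 56 and 59 at 1.0 µM. T-N1G cells gave 56, 61 and 70 fragments, then 22, 42 and 29, then 2, 4 and 8. Treated libraries lay below all vehicle libraries in both lines. The fall was 1.73-fold and 2.42-fold in mock cells (adjusted p = 0.00313 and 3.17e-05) and 1.88-fold and 10.6-fold in T-N1G cells (log2 -0.91 ± 0.23 and -3.40 ± 0.32, adjusted p = 0.00269 and 2.01e-08). At 1.0 µM the responses differed between the lines by -2.13 ± 0.40 on the log2 scale (adjusted p = 0.000324), and by -2.75 without T-N1G library 3 at that dose. That value rests on 14 fragments over the 3 libraries.

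Peg3, which encodes a zinc finger transcription factor, fell at the lower dose in both lines. It stood at 8.06, 6.85 and 7.99 CPM in mock cells under vehicle, at 5.01, 4.65 and 4.24 at 0.3 µM and at 8.46, 7.50 and 12.8 at 1.0 µM. In T-N1G cells it stood at 10.47, 12.2 and 18.8 CPM, at 5.598, 6.88 and 9.70 and at 7.37, 12.6 and 10.1. It fell 1.65-fold in mock (log2 -0.72 ± 0.26, adjusted p = 0.0278) and 1.87-fold in T-N1G cells at 0.3 µM (log2 -0.90 ± 0.25, adjusted p = 0.00437). At 1.0 µM its log2 difference was 0.33 ± 0.25 for mock and -0.46 ± 0.24 for T-N1G (adjusted p = 0.247 and 0.0956). The latter was called with library-size scaling (-0.60, adjusted p = 0.0456) and without T-N1G vehicle library 1 (adjusted p = 0.0446) or 1.0 µM library 2 (-0.66, adjusted p = 0.0334). The mock call was lost without either of the vehicle libraries 1 and 3 or the 0.3 µM libraries 2 and 3 (adjusted p = 0.086, 0.0851, 0.065 and 0.0853), and the T-N1G call without vehicle library 3 (adjusted p = 0.0501). The interaction at 1.0 µM, -0.79 ± 0.35 (adjusted p = 0.0753), was called with the replicate block (adjusted p = 0.044) and without mock library 2 at 1.0 µM, T-N1G vehicle library 1 or T-N1G library 2 at 1.0 µM (adjusted p = 0.0334, 0.0323 and 0.0318).

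Dlk1 stood at 176, 169 and 174 CPM in mock cells under vehicle, at 156, 143 and 152 at 0.3 µM and at 137, 70.9 and 75.7 at 1.0 µM. The T-N1G libraries stood at 156, 139 and 120 CPM, at 124, 119 and 90.1 and at 148, 88.4 and 71.4. It fell 1.83-fold in mock cells at 1.0 µM (log2 -0.87 ± 0.26, adjusted p = 0.00822), a call that was lost without mock library 2 at that dose (log2 -0.64, adjusted p = 0.0531). At 0.3 µM the mock libraries lay below vehicle, with a log2 difference of -0.20 ± 0.26 that did not pass the test (adjusted p = 0.536). A fit of the mock vehicle and 0.3 µM libraries alone called Dlk1 lower (adjusted p = 0.000427). In T-N1G cells, where treated and vehicle libraries overlapped at both doses, the log2 difference at 1.0 µM was -0.43 ± 0.26 (adjusted p = 0.142). It was called without T-N1G library 1 at 1.0 µM (log2 -0.77, adjusted p = 0.00957).

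Dlk1 shares its domain on chromosome 12 with the maternally expressed noncoding RNAs Meg3, Rian and Mirg, and all 3 were lower in T-N1G cells. Under vehicle Meg3 stood at 7.51, 4.23 and 4.83 CPM in T-N1G against 18.5, 19.4 and 17.3 in mock cells (log2 -1.73 ± 0.22, adjusted p = 2.81e-05). Rian stood at 13.6, 10.8 and 8.19 CPM against 29.4, 31.7 and 32.7 (log2 -1.53 ± 0.21, adjusted p = 7.14e-05). Mirg, at 5 to 21 fragments, had a log2 difference of -1.37 ± 0.42 (adjusted p = 0.0326). These RNAs were lower at 0.3 µM (log2 -2.34, -2.45 and -1.92) and at 1.0 µM too (log2 -1.51, -1.52 and -1.47), each past the threshold. The log2 ratio of Dlk1 to Meg3 in CPM under vehicle was 3.23 ± 0.10 for mock libraries and 4.68 ± 0.33 for T-N1G libraries (SD, n = 3). The Mirg call under vehicle was lost without mock vehicle library 1 or 3 or T-N1G vehicle library 1 or 2 (adjusted p = 0.102, 0.0901, 0.131 and 0.101).

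**Figure D4:**
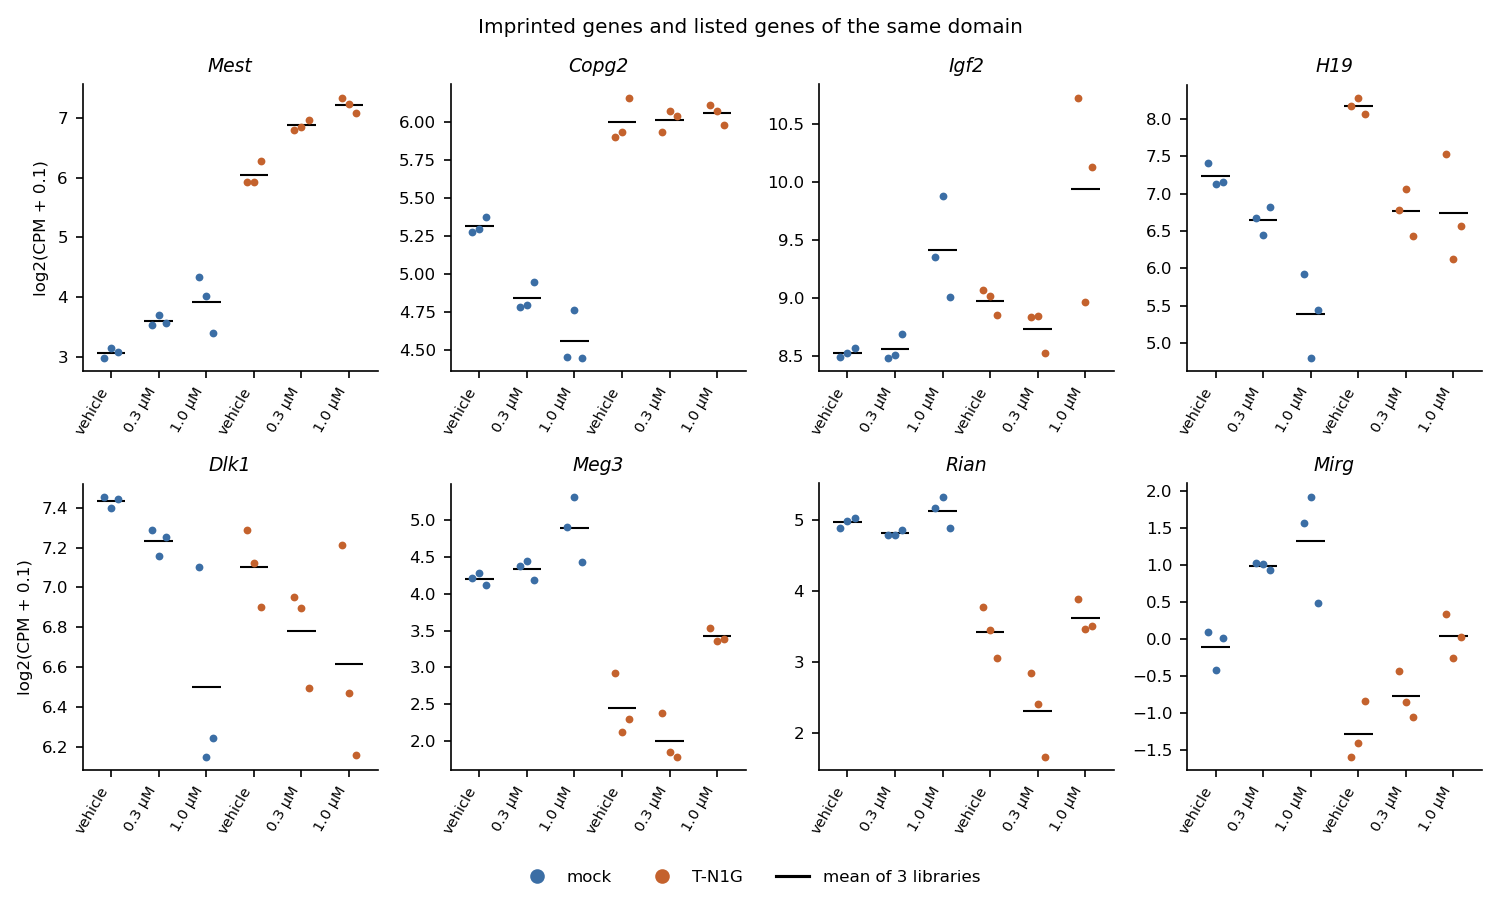
Level in every library, as log2(CPM + 0.1), of Mest beside Copg2, of Igf2 beside H19 and of Dlk1 beside Meg3, Rian and Mirg (vertical scales differ between genes), with mock cells in blue, T-N1G cells in orange and black lines for the means of 3 libraries. Meg3 and Rian are lower in T-N1G cells at each treatment, while Dlk1 differs little between the lines (log2 -0.32 under vehicle).

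Beyond the 10 genes, 45 of 64 other imprinted genes on the list passed the filter. Under vehicle 9 of these were higher and 6 lower in T-N1G cells, 33.3% against 16.1% of all genes tested (8.43% higher and 7.72% lower), with a median log2 difference of 0.09 against 0.00. At 0.3 µM 14 were higher and 13 lower (60% against 48.5%, of which 25% higher and 23.5% lower), and at 1.0 µM 15 and 13 (62.2% against 61.9%, of which 30.7% higher and 31.3% lower). By expressed copy, 5 of 18 paternally expressed genes were higher and 0 lower under vehicle, and 4 of 25 maternally expressed genes were higher and 6 lower. At 0.3 µM the paternally expressed genes gave 4 higher and 3 lower and the maternally expressed 9 and 10, and at 1.0 µM 7 and 3, and 7 and 10. Which copy each gene used in these cells is not known. A fit of the vehicle libraries alone tested 39 of these genes and called 13 higher and 10 lower. That fit called 39.6% of all its genes. Genes of the same domain, such as Meg3, Rian and Mirg among the lower ones, need not vary independently, and no test of these shares was made.

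Of the genes higher under vehicle, Pon3, a lactonase, was 2.21-fold higher (adjusted p = 0.000888), with 354, 254 and 239 fragments against 148, 114 and 123. Peg13, a noncoding RNA, was 1.93-fold higher (adjusted p = 0.000296) and Zrsr1, a splicing factor gene, 1.73-fold higher (adjusted p = 5.27e-06). Sgce, a sarcoglycan, was 1.66-fold higher (adjusted p = 0.00493). Asb4, at 1 to 10 fragments per library, had a log2 difference of 1.81 ± 0.57 (adjusted p = 0.0364) with overlapping libraries, and lost the call without any mock vehicle library and without T-N1G vehicle library 1 or 2 (adjusted p = 0.0533 to 0.141). Of the lower genes outside the Dlk1 domain, Gatm, the first enzyme of creatine synthesis, gave 0 fragments in all 9 T-N1G libraries against 22, 14 and 19 in mock cells under vehicle, at least 18.3-fold lower. Gatm passed the filter on low counts through mock libraries alone, and the count of lower genes includes it. Htr2a, a serotonin receptor, was 1.85-fold lower (log2 -0.89 ± 0.21, adjusted p = 0.00624).

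With MG132, the calls among the other imprinted genes were 10 higher and 11 lower in mock cells at 0.3 µM (46.7% against 53.1%) and 18 and 11 at 1.0 µM (64.4% against 69.7%). In T-N1G cells they were 12 and 13 (55.6% against 59.4%) and 20 and 15 (77.8% against 76.4%). Impact, which restrains the amino acid sensor Gcn2, rose 6.12-fold and 12.0-fold in T-N1G cells (adjusted p = 1.42e-11 and 1.26e-13). In mock cells it rose 1.37-fold and 1.83-fold (adjusted p = 0.00506 and 6.25e-06). Its response was 4.46-fold and 6.53-fold stronger in T-N1G than in mock cells by the interaction term (adjusted p = 1.09e-07 and 1.84e-09).

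Kcnq1ot1, the paternal antisense RNA of the Cdkn1c domain, whose reads may include those of the gene on the other strand, rose 14.9-fold in T-N1G cells at 1.0 µM (adjusted p = 7.25e-06) and 4.50-fold in mock cells (adjusted p = 0.00128). Libraries at that dose scattered widely, at 1042 to 3951 fragments in T-N1G and 271 to 1060 in mock cells, and the lines overlapped. The interaction was not called (log2 1.72 ± 0.67, adjusted p = 0.0518). Phlda2, a maternally expressed growth restrainer of the Cdkn1c domain, rose in mock cells at 0.3 µM, from 1 to 6 fragments per vehicle library to 15 to 24. Zim1, a zinc finger gene in the domain of Peg3, was read at 0 to 2 fragments in each vehicle library and at 14 to 23 in T-N1G cells at 1.0 µM. Asb4 rose in mock cells at 1.0 µM, from 1 to 3 fragments per vehicle library to 26 to 31. Ppp1r9a, a neuronal scaffold gene, gave 2 fragments over the 3 mock vehicle libraries and 11 to 24 in each mock library at 1.0 µM. Zim1 and Ppp1r9a passed the filter on low counts mainly through the group in which they were high. Asb4 and Phlda2 passed it mainly through groups treated with MG132. No p is therefore given for these rises, though the counts of calls include them. The call for Ppp1r9a in mock cells at 0.3 µM (adjusted p = 0.0496) was lost in 18 of 25 alternatives.

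Among those that fell, Peg12 was 4.62-fold lower in T-N1G cells at 1.0 µM (adjusted p = 4.63e-09), and Slc38a4, an amino acid transporter, 3.00-fold lower (adjusted p = 3.4e-06). In mock cells at 1.0 µM the tetraspanin gene Cd81 and the splicing factor gene Snrpn fell 2.56-fold and 2.44-fold (adjusted p = 1.76e-11 and 0.000186). At 0.3 µM Peg13 and Peg12 fell in mock cells (log2 -1.34 and -0.98, adjusted p = 2.44e-06 and 8.72e-05), and Rtl1, at 1 to 8 fragments per library, and Dcn, a matrix proteoglycan, in T-N1G cells (log2 -1.96 and -1.41, adjusted p = 0.0169 and 0.00577). The Rtl1 call was lost without T-N1G library 2 at 0.3 µM (adjusted p = 0.0601).

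Of 19 tested genes that write, read or guard imprints (DNA methyltransferases, TET enzymes, ZFP57 and its partners, Polycomb subunits), 2 were called between the lines under vehicle, both lower in T-N1G cells (10.5% against 16.1% of all genes). At 0.3 µM 3 were higher and 9 lower (63.2% against 48.5%), and at 1.0 µM 7 and 9 (84.2% against 61.9%). The interaction was called for 9 at 0.3 µM (47.4% against 25.1%) and 13 at 1.0 µM (68.4% against 45%). Suz12, a Polycomb subunit, had a log2 difference of -0.36 ± 0.07 (adjusted p = 0.000933), beside the chromosome 11 median of -0.22. Tet3, which oxidises methylated cytosine, had -0.32 ± 0.09 (adjusted p = 0.0192). At 1.0 µM Tet3 was higher in T-N1G cells (log2 0.25 ± 0.09, adjusted p = 0.0222). The Tet3 call under vehicle was lost without mock vehicle library 2 or 3 or T-N1G vehicle library 1 or 2 (adjusted p = 0.0656, 0.0829, 0.11 and 0.0747).

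Over the 18 libraries, the genes whose log2 CPM followed that of Zdbf2 most closely were Sulf1, a sulfatase (Pearson r = 0.971), Arap2 (0.964) and Bend4 (0.963). Those most like Mest were Me1, the cytosolic malic enzyme (r = 0.990), Mafg (0.989), whose fragments in T-N1G cells include those of the fusion, and Ttn, which encodes titin (0.983). Sulf1 stood at 6.26 CPM in mock and 1.37 in T-N1G cells under vehicle, and Me1 at 46.6 and 174. The 18 points share 2 lines and 3 treatments, so these values describe a shared pattern and carry no p.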

How the data were processed

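Poly(A) RNA of 18 fibroblast libraries was sequenced after a strand-specific SureSelect preparation, per the labels' protocols. The submitters' processing notes name bcl2fastq 2.16.0.10, TopHat2 2.0.8b, Cuffdiff 2.1.1 and mm9. Neither annotation nor strand setting of the counting is given in the sources used. The deposited table gives, per the file headers, an estimated count of fragments and an FPKM value for each gene and library. The files do not state how Cuffdiff's condition names and replicates 0 to 2 map to the titles, and they were matched by name and number.

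Estimated counts (98.16 to 98.51% whole within 1e-06) were rounded, and 2 genes left out. edgeR 4.0.16 (R 4.3.3, TMM, quasi-likelihood, 6 group means over all 18 libraries) tested 13258 genes, with Benjamini-Hochberg adjusted p under 0.05 as the call. CPM are TMM-scaled. Log2 changes are those of the edgeR fit, and a prior count of 2 entered only the log2 CPM used for correlations and scatter. Their SE was derived from the edgeR test, as the absolute log2 change divided by the square root of its F statistic. The model was tested on simulated data. Line differences of the 10 genes, Zdbf2 in T-N1G cells and the interaction of Zdbf2 and Mest carry no test, since the genes were chosen on them or had too few fragments. Counts carry no molecular identifiers, so intervals and floors (3 fragments over a group) cover counting error only. No replicate pair agreed within sampling noise (smallest chi-square per degree of freedom 2.82 over 18 pairs).

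Named were the 10 genes, the 5 other imprinted genes of largest change in each direction among those called under vehicle, 2 in each direction per dose and line, 3 genes of the imprint machinery and the IGF axis lists, 3 genes most correlated with Zdbf2 and Mest, and neighbours within 200 kb. Genes and lists were chosen with earlier results of these data known. Same-numbered libraries of 2 groups deviated together (correlation over 0.1) in 17 of 21 pairs, range -0.115 to 0.818, and in every pair for 5 of 7 comparisons. No label says that a number marks a shared batch. Alternatives were DESeq2 1.42.0, limma 3.58.1 on log2(FPKM + 0.1), library-size scaling, TMM without chromosomes 4 and 11, no filter, only the groups compared, a replicate block, and leaving out each library.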

Additional observations from a re-analysis of the deposited data

Results flagged for a closer look

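The response of Plagl1 to MG132 differed between the lines, by the interaction term of the edgeR fit. The difference (T-N1G minus mock) was -2.01 ± 0.21 at 0.3 µM (SE, adjusted p = 1.98e-06) and -1.49 ± 0.20 at 1.0 µM (adjusted p = 1.47e-05) on the log2 scale. At 0.3 µM all 3 mock libraries lay above and all 3 T-N1G libraries below their vehicle libraries.

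The response of Ndn differed at 1.0 µM by -2.13 ± 0.40 (adjusted p = 0.000324), with 2, 4 and 8 fragments in the T-N1G libraries at that dose.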

How the results depend on the processing

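The 25 alternatives left most calls in place. Of the 10 genes, 4 were called in mock cells at 0.3 µM, and 8 in a fit of the compared groups alone (73.8% of all genes); leaving out single libraries gave 2 to 5. That range was 6 to 8 for mock at 1.0 µM, and for T-N1G 5 to 8 (0.3 µM) and 5 to 7 (1.0 µM). Other imprinted genes called under vehicle numbered 23 in a fit of the vehicle libraries alone (39.6% of all genes) and 11 to 17 without single libraries, and at the doses 22 to 31 and 26 to 32. The interaction at 0.3 µM was called for 2 genes with the replicate block, 4 in a fit of the 4 groups alone (46.3% of all genes), 3 with DESeq2 and 2 with limma, and for 1 to 2 without single libraries; at 1.0 µM the range was 2 to 3. The replicate block otherwise called 4, 8, 7 and 7 of the 10 genes, adding Dlk1 in T-N1G cells at 1.0 µM (adjusted p = 0.0329), and removed Ppp1r9a in mock cells at 0.3 µM (adjusted p = 0.0522). The cause of these shifts was not tested. Values that changed sign were all uncalled. With library-size scaling they were Igf2 and Grb10 in mock cells at 0.3 µM (both -0.02) and Ino80dos under vehicle (0.00). Ino80dos also gave -0.01 with the replicate block, -0.02 with TMM without chromosomes 4 and 11, -0.10 with limma, and -0.41, -0.11 and -0.03 without single vehicle libraries. Without single libraries, Ndufs1 ran from -0.04 to 0.03, through 0.00, Igf2 in mock cells at 0.3 µM -0.03 and Plagl1 in T-N1G cells at 1.0 µM 0.07. Interactions then ran at 0.3 µM from -0.43 to 0.09 (Peg3), -0.22 to 0.01 (Dlk1) and -0.42 to 0.08 (Ndn, also 0.03), and at 1.0 µM from -0.29 to 0.55 (Igf2), -0.08 to 0.73 (H19) and -0.26 to 0.36 (Cdkn1c). Genes at a few fragments (Zdbf2 in T-N1G cells, Ndn at 1.0 µM, Asb4, Mirg, Phlda2, Ppp1r9a, Rtl1, Zim1) are limited by depth.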
